A study of Mus musculus with 11 samples.

Results

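The transcriptional response of young muscle stem cells (MuSCs, the resident stem cells of skeletal muscle) to prostaglandin E2 (PGE2) was followed in 6 of the 11 RNA-seq libraries of the series, 3 untreated and 3 treated. The members are the 10717 genes, of 32976 in the table, that had enough counts to be tested between these libraries. The libraries were chosen by their labels and the genes by a low-count filter. MuSCs were sorted by FACS from hindlimb muscles of C57BL/6 mice aged 2 to 4 months as integrin α7+CD34+ cells lacking CD45, Sca1, CD31 and CD11b. All cells were kept on hydrogels for 24 h in medium with fetal bovine serum. The treated cells received 10 ng/ml PGE2 for 24 h, and the labels name no vehicle for the untreated cells, although the study's culture methods set the agents they list, which do not include PGE2, against a DMSO solvent control. The remaining 5 libraries came from MuSCs of mice aged 24 months (2 untreated, 3 with the same PGE2 treatment) and are used below only as a second look at the same genes. RNA came from 5000 to 10000 cells a library and was amplified before sequencing. The labels do not say whether replicates were separate mice or sorts, so that the p-values below measure the spread between these libraries only.

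PGE2 is a lipid signal made from arachidonic acid by the cyclooxygenases, and it is released in injured and inflamed tissue. It acts through the EP receptors, of which EP2 and EP4 couple to Gs and raise cAMP, which activates protein kinase A and the transcription factor CREB. CREB binds the cAMP response element, and its targets include genes that switch the signal off again, among them cAMP phosphodiesterases and salt-inducible kinase 1. In skeletal muscle PGE2 is known as a signal that promotes MuSC expansion after injury.

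Library depth and background differed between libraries, and 2 of the 3 PGE2 libraries stood apart. Total estimated counts were 3356780 to 7198596 in the untreated libraries and 693371 to 3641977 in the PGE2 libraries, and a floor of 3 counts corresponded to 0.417 to 4.33 CPM (counts scaled to a common library total, with TMM factors added in the levels of single genes below), which covers counting error only. The treated libraries are called PGE2 replicate 2 and PGE2 libraries a and b, because a and b carry 1 shared column name. Reads on olfactory receptor genes were taken as a sign of background. They summed to 55.1 to 364.1 CPM in untreated libraries and to 340.7 CPM in PGE2 library a. In PGE2 replicate 2 and library b they summed to 1212 and 1220 CPM. The mitochondrial share was 11.4% in PGE2 replicate 2 and 5.33% to 7.28% in the other 5 libraries. Y-linked reads were found in untreated replicate 3 (497 counts) and in PGE2 library b (74 counts) and in neither group's other libraries. The study lists its young C57BL/6 mice as male, which the libraries with 0 Y-linked counts do not bear out. The part of sex in the results was not tested. Library pairs within a group differed by more than sampling noise (chi-square per degree of freedom 13.3 to 49.0). The part of depth and background in the results was not tested beyond the alternatives named beside them, and a preparation batch cannot be told apart from the treatment.

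MuSC markers were read in both groups. The summed level of 11 MuSC markers was 2578 to 3208 CPM untreated and 2411 to 2865 CPM with PGE2, with Pax7, Myod1 and Vcam1 read in all 6 libraries. Chrna1 alone made up 922.3 to 1131 CPM of these sums, and of the 10 markers tested 8 had a log2 fold change below 0 (median -0.16), all with overlapping groups. The sort marker Cd34 was at -0.89 (SE 0.45). Of the markers of other cell types, those of blood cells summed to 8.47 to 16.3 CPM untreated and 11.8 to 50.5 CPM with PGE2, and 2 of the 11, Tyrobp and Lyz2, had 0 counts in every library. Laptm5 was read in all 6 libraries (10 to 60 counts), and Itgam had 15 counts in library b. The 10 endothelial markers summed to 4.03 to 13.2 CPM untreated and 9.61 to 83.6 CPM with PGE2. The highest value was that of library b, with 29 counts of Vwf and 15 of Pecam1, while Cldn5 was at 0 throughout. Fibroadipogenic markers stayed between 9.24 and 13.0 CPM in all 6 libraries. The part of these cells in the results was not tested.

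Odc1 was higher in the PGE2 libraries of young MuSCs. It was the 1 gene of 10717 (0.00933%) that passed an adjusted p under 0.05 (edgeR quasi-likelihood test with Benjamini-Hochberg adjustment). Odc1 encodes ornithine decarboxylase, the rate-limiting enzyme of polyamine synthesis, which growing cells depend on, and it lies at chr12:17544794-17551505 on the plus strand (mm10). It stood at 1502, 1549 and 1415 CPM in untreated replicates 1, 2 and 3, and at 4256, 5153 and 4457 CPM in PGE2 replicate 2 and libraries a and b. Every PGE2 library was thus far above every untreated one. Odc1 was 3.11-fold higher with PGE2 (log2 fold change 1.63, SE 0.20, edgeR adjusted p = 0.0176). DESeq2 called 17 genes where edgeR called 1, with 16 of the 17 higher and Odc1 among them. On simulated counts, which held changed genes and took their spread from a common trend, DESeq2 called 18 and edgeR 8 of 10169 unchanged genes. With that setting, the number of false calls among the 17 cannot be read from the simulation. The size of the Odc1 difference held between 1.55 and 1.69 over 14 alternatives, but its call did not: the edgeR adjusted p was 0.299, 0.660 and 0.442 without untreated replicate 1, 2 or 3, 0.0560 without PGE2 replicate 2, and 0.9997 when olfactory receptor reads entered the fit as a covariate.

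**Figure D1:**
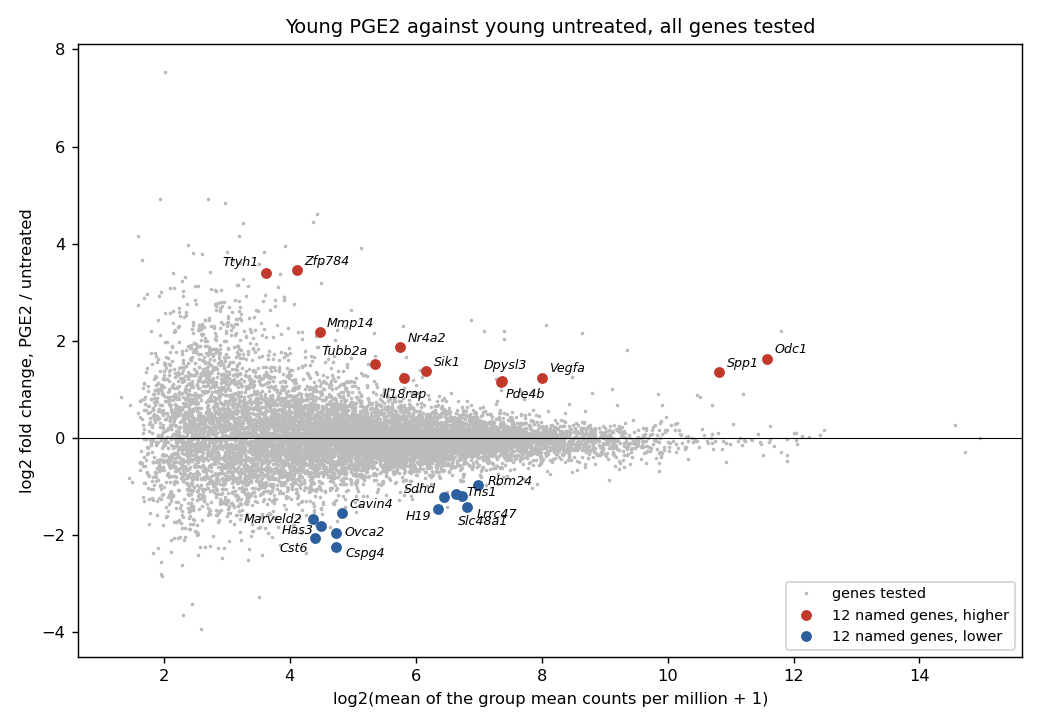
Log2 fold change (PGE2 over untreated, y axis) against log2 mean CPM (x axis) for the 10717 genes tested in young MuSCs, with the 12 higher (red) and 12 lower (blue) named genes. Odc1 and Spp1 stand out at high abundance, where most genes lie nearer to 0 and a few others, among them mt-Nd2 and Sparc, also lie above it, while many low-abundance genes have fold changes as large as those named.

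Beyond Odc1 no gene passed over all genes by edgeR, so that what follows is given as levels, differences and counts. At an unadjusted p under 0.05, 270 genes were higher with PGE2 (2.52% of those tested) and 174 were lower (1.62%). The 3 PGE2 libraries lay wholly above the untreated ones for 485 genes (4.53%) and wholly below for 522 (4.87%). These counts are the background for the shares given below, and are not counts of genes that responded to PGE2. In each direction the 12 named genes with the smallest p and separate groups were taken, and they are described first. Their separation is part of that rule and is not a result.

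Among the 12 higher genes, Spp1, Vegfa and Mmp14 encode proteins that act outside the cell. Spp1, which encodes the secreted matrix protein osteopontin, was read at 1081, 950.1 and 1016 CPM untreated and at 3253, 2440 and 2107 CPM with PGE2 (log2 fold change 1.36, SE 0.23, edgeR adjusted p = 0.207). Per kilobase of exon, Spp1 was the more abundant of the pair at the top of the ranking, with 616.4 CPM per kb against 437.2 for Odc1 in untreated cells. Vegfa, the angiogenic growth factor, was read at 181.6, 116.5 and 156.4 CPM untreated and at 399.9, 341.8 and 332.5 CPM with PGE2 (log2 fold change 1.24, SE 0.25). Its PGE2 libraries lay close together. Mmp14, a membrane-anchored collagenase, was low at 7.33, 10.7 and 5.53 CPM untreated and stood at 44.7, 42.0 and 17.1 CPM with PGE2 (log2 fold change 2.17, SE 0.50). PGE2 library b was the lowest of the treated libraries for Mmp14, resting on 12 counts.

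Genes of cAMP signaling were also among the higher genes named by p. Nr4a2, an orphan nuclear receptor and a classical CREB target, was read at 17.01, 14.6 and 37.1 CPM untreated and at 101.0, 103.7 and 44.0 CPM with PGE2 (log2 fold change 1.86, SE 0.43, and 2.83 with the olfactory receptor covariate). Sik1, the salt-inducible kinase that restrains CREB coactivators, was read at 34.6, 50.9 and 33.8 CPM untreated and at 103.9, 107.7 and 95.2 CPM with PGE2 (log2 fold change 1.37, SE 0.30). Pde4b, a phosphodiesterase that degrades cAMP, was read at 90.8, 101.0 and 112.9 CPM untreated and at 286.4, 248.0 and 146.4 CPM with PGE2 (log2 fold change 1.17, SE 0.28). Nr4a2 and Pde4b were lowest among treated cells in library b, whereas Sik1 was level across all 3. DESeq2 called all 3 of these genes, with adjusted p = 0.0293 for Nr4a2, 0.0178 for Sik1 and 0.0394 for Pde4b, and edgeR called none (adjusted p = 0.809 for each). The DESeq2 adjusted p was smaller for Spp1 (8.601e-06), Vegfa (0.00304) and Zfp784 (0.00397), 0.0178 for Ttyh1 and 0.0323 for Mmp14.

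**Figure D2:**
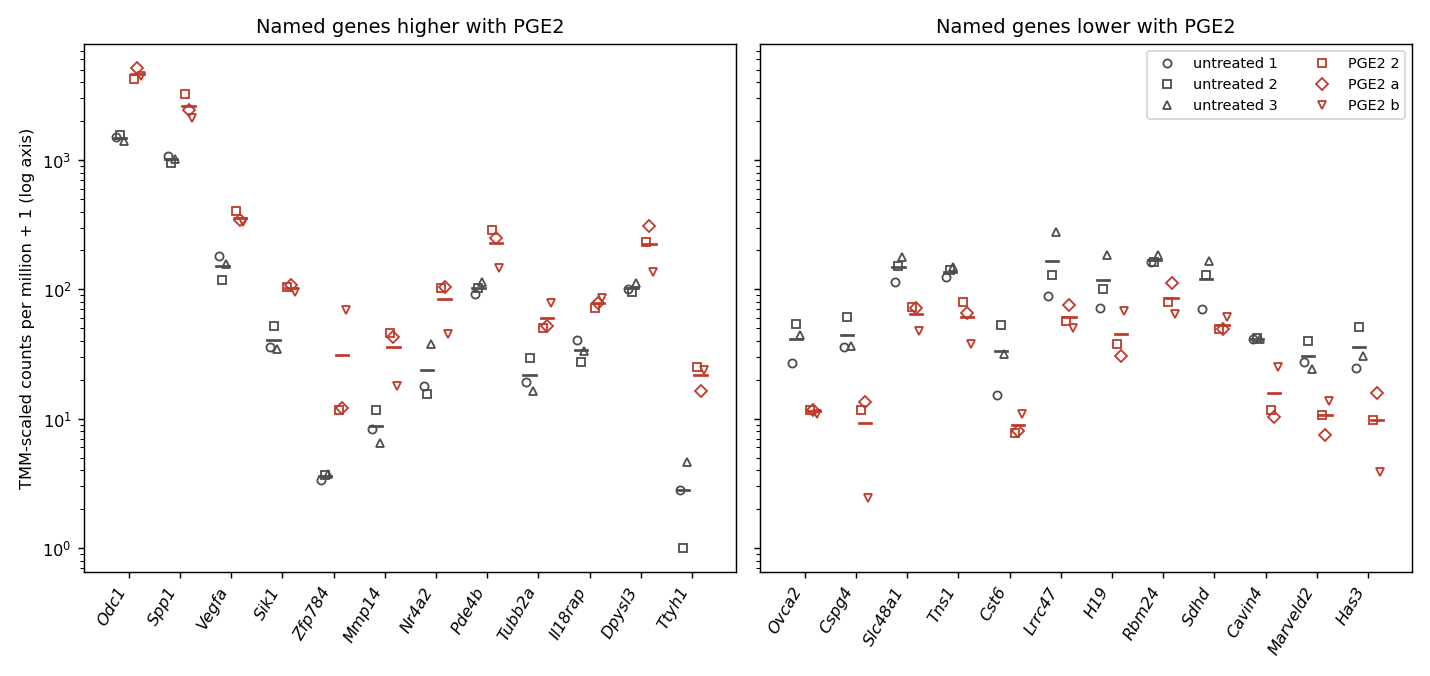
TMM-scaled CPM + 1 on a log axis for the 12 named genes higher (left) and the 12 lower (right) with PGE2 in young MuSCs; symbols are single libraries, grey untreated and red PGE2, and bars are group means. Odc1 lies at 1415 to 1549 CPM untreated and at 4256 to 5153 CPM with PGE2, and for Zfp784 the PGE2 mean rests on library b.

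The rest of the 12 were a mixed group. Tubb2a, a beta-tubulin, had a log2 fold change of 1.52 (SE 0.38), and reads that it shares with its near-identical copy Tubb2b could be split by the counting. Dpysl3, which binds tubulin and shapes the cytoskeleton, had a log2 fold change of 1.15 (SE 0.30), and Il18rap, the accessory chain of the interleukin-18 receptor, of 1.24 (SE 0.31). Zfp784, which codes for a zinc finger protein, stood at 10.7, 11.2 and 68.2 CPM with PGE2 against 2.35, 2.68 and 2.77 CPM untreated. Its log2 fold change of 3.46 became 2.05 without library b. Ttyh1 was read at 0 to 3.64 CPM untreated and at 15.3 to 24.3 CPM with PGE2. The strand setting of the counting is not given, and Spp1, Zfp784 and Ttyh1 overlap other annotated genes, so that shared reads are uncertain.

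Because CREB is the best known transcriptional output of cAMP, the promoter windows of the higher genes were searched for its element. The full palindrome TGACGTCA and its core, which reads TGACG on one strand and therefore CGTCA on the opposite one, were looked for on both strands in RefSeq windows running from 250 bases before to 50 after each start (GRCm38.p6), and every full element also holds the core on each strand. Of the 12 higher genes 10 had a window, and 5 of the 10 held the core and 1 the full element, against 37.2% and 3.85% of the 8278 tested genes with a window. Pde4b and Vegfa have several windows, and both were counted because 1 window of each held the core. Among the 12 lower genes, 1 of 8 held the core and 0 the full element. The stretches of 4 higher genes are shown, 5′ to 3′ on the gene's strand with the core or full element in capitals. They were chosen because their windows hold the core.
Odc1, chr12:17544782-17544810, plus strand: gccccgccccacTGACGcgcccggcccgc
Pde4b, chr4:102421509-102421537, plus strand: gatttggctgcaCGTCAattttctcatct
Tubb2a, chr13:34078035-34078092, minus strand: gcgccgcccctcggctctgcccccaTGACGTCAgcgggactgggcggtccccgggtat
Nr4a2, chr2:57124085-57124228, minus strand: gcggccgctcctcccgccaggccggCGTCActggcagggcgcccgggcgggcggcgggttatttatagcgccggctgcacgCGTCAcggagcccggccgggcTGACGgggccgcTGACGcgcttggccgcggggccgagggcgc

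The Odc1 core begins 79 bases upstream of its RefSeq start. The GENCODE annotation begins the gene at the first base of this core, so that by GENCODE the core lies inside the gene. Nr4a2 held 4 cores, 200, 144, 123 and 111 bases upstream. The Pde4b core lies 34 bases upstream of an internal start of that long gene, and Tubb2a held the 1 full element among the higher genes. The core of Vegfa also lies in a window inside the gene and is not shown. A match says only that these letters are present.

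The cAMP and CREB list as a whole was uneven. Of its 31 tested members, 4 were higher at an unadjusted p under 0.05 (Nr4a2, Sik1, Pde4b and Pde4d) and 0 were lower, against 2.52% of all genes in that direction, and 5 had PGE2 libraries wholly above the untreated ones, against 4.53%. Pde4d, a second cAMP phosphodiesterase, was read at 24.8, 22.6 and 15.3 CPM untreated and at 60.2, 58.4 and 32.7 CPM with PGE2 (log2 fold change 1.29, SE 0.38, and 0.77 with libraries thinned to equal totals). The fifth was Adcy9, an adenylyl cyclase that makes cAMP, with a log2 fold change of 1.31 (SE 0.78). Other members of the core pathway overlapped between groups, among them the protein kinase A subunits Prkaca (-0.48, SE 0.39), Prkacb (-0.22, SE 0.27) and Prkar1a (0.05, SE 0.22), Creb1 (-0.24, SE 0.29), its coactivator Crtc1 (0.03, SE 0.59) and the Gs subunit Gnas (-0.65, SE 0.34). Crem, whose short form is induced by CREB, was at 0.11 (SE 0.87). The median log2 fold change of the list was 0.16, against -0.00 over all genes tested, and it went to between -0.10 and 0.33 over the alternatives. Nr4a2 and Pde4b were known from an earlier comparison over both ages. The list was chosen with such results known, so that its share of higher genes is not independent support.

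**Figure D3:**
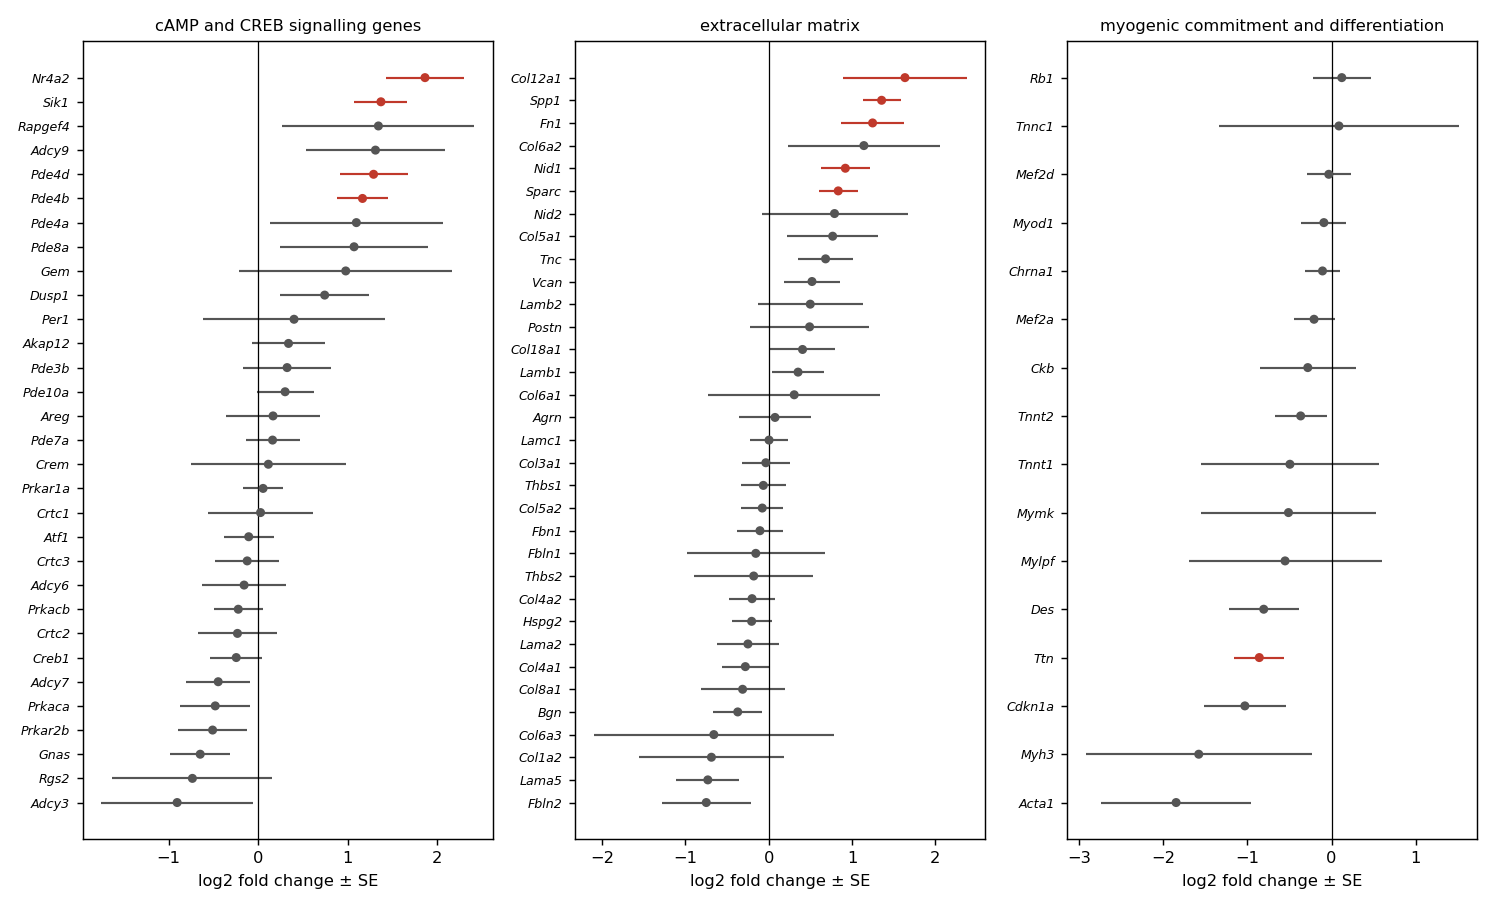
Log2 fold changes ± SE (PGE2 over untreated) of every tested member of the cAMP and CREB list (31 genes), the extracellular matrix list (33) and the myogenic list (16), with genes at an unadjusted p under 0.05 in red. In the first 2 lists a few members stand to the right of 0 and the others spread around it, whereas 14 of 16 myogenic genes lie below 0.

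PGE2 receptors were thinly expressed. Ptger4 (EP4) was read at 17.8, 17.9 and 8.004 CPM untreated and at 26.2, 28.4 and 7.10 CPM with PGE2, with overlapping groups and a log2 fold change of 0.55 (SE 0.56). Ptger1 (EP1) stood at 2.68 to 6.36 CPM untreated and 3.55 to 12.8 CPM with PGE2. Per kilobase, Ptger4 exceeded Ptger1 in untreated cells (2.19 against 0.890 CPM per kb), and both share bases with neighbouring genes. Ptger2 (EP2) and Ptger3 (EP3) had a single count each, in untreated replicate 1, and were below the filter, as were the receptors for the other prostanoids Ptgdr, Ptgfr, Ptgir and Tbxa2r. At 0 counts, levels up to the floor of each library (0.417 to 4.33 CPM) were not detectable. On the supply side, Ptgs1 (cyclooxygenase 1) was read at 23.1, 10.4 and 19.6 CPM untreated and at 33.0, 53.2 and 28.4 CPM with PGE2 (log2 fold change 1.13, SE 0.43), while Ptgs2 and the PGE2-degrading enzyme Hpgd were below the filter.

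In polyamine metabolism Odc1 alone passed over all genes. Of the 14 genes tested, Odc1 and Smox, the spermine oxidase, were higher at an unadjusted p under 0.05, against 2.52% of all genes, and Dhps, which uses spermidine to modify the translation factor eIF5A, was lower, against 1.62%. Smox was read at 19.8, 23.5 and 24.0 CPM untreated and at 55.3, 30.8 and 45.5 CPM with PGE2 (log2 fold change 0.95, SE 0.37), without overlap. Dhps had a log2 fold change of -1.22 (SE 0.54). The enzymes downstream of ornithine decarboxylase overlapped between groups, with Amd1 at 0.10 (SE 0.28), Srm at -0.37 (SE 0.27) and Sms at -0.35 (SE 0.31). So did the antizyme genes Oaz1 (0.06, SE 0.37) and Oaz2 (-0.64, SE 0.45) and the antizyme inhibitor Azin1 (-0.56, SE 0.29). The list median was -0.09. Odc1 was also known from that earlier comparison over both ages when the list was chosen, so that the share of higher genes partly follows from that choice.

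Extracellular matrix genes showed a similar pattern of a few high members. Of 33 tested, 5 were higher at an unadjusted p under 0.05, against 2.52% of all genes, and 0 were lower, with Spp1, Sparc, Fn1, Nid1 and Col12a1 making up the 5. Sparc and Fn1 were known from the earlier comparison over both ages when the list was chosen, so that this share is not independent support. Sparc, a collagen-binding matricellular protein, was read at 952.6, 1207 and 996.3 CPM untreated and at 2317, 1888 and 1421 CPM with PGE2 (log2 fold change 0.83, SE 0.24). Fn1 (fibronectin) was read at 249.7, 171.6 and 217.0 CPM untreated and at 624.2, 700.8 and 183.3 CPM with PGE2 (log2 fold change 1.25, SE 0.38). Sparc did not overlap between groups, whereas library b brought Fn1 back among the untreated values. Nid1, a basement membrane linker, had a log2 fold change of 0.92 (SE 0.30), and Col12a1 of 1.64 (SE 0.74, and 0.57 without library b), with 36.9 CPM in library b and at most 8.46 CPM in the other 5 libraries. The other collagens lay on both sides of 0 with overlapping groups, from Col1a2 at -0.69 (SE 0.87), Col4a1 at -0.28 (SE 0.28) and Col4a2 at -0.20 (SE 0.27) to Col18a1 at 0.41 (SE 0.39), Col5a1 at 0.77 (SE 0.55) and Col6a2 at 1.14 (SE 0.91), and the list median was 0.00. Serpinh1, a collagen chaperone from the matrix remodelling list, did not overlap between groups (log2 fold change -0.64, SE 0.25).

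The myogenic program lay below its untreated level in most members, without passing the test. Of 16 commitment and differentiation genes tested, 14 had a log2 fold change below 0, against 5379 of all 10717 genes, the list median was -0.43, the lowest of the 40 lists described, and it stayed below 0 in the alternatives run for the lists (-0.70 to -0.06). That median was -0.06 without PGE2 library a, -0.70 without library b, -0.21 without untreated replicate 3, -0.12 with libraries thinned to equal totals and -0.20 with the olfactory receptor covariate. Titin (Ttn) was the 1 member lower at an unadjusted p under 0.05, against 1.62% of all genes, at 827.2, 858.3 and 395.8 CPM untreated and 474.7, 353.8 and 319.7 CPM with PGE2 (log2 fold change -0.86, SE 0.30, and -1.44 with the olfactory receptor covariate). The groups of all 16 genes overlapped, and for Ttn untreated replicate 3 lay among the treated values. Acta1, the skeletal actin, had a log2 fold change of -1.84 (SE 0.89), the cell cycle inhibitor Cdkn1a of -1.03 (SE 0.48) and the intermediate filament gene Des of -0.80 (SE 0.41). Untreated replicate 3 was the highest library for all 3, with Cdkn1a at 530.2 CPM against 75.8 to 261.2 CPM in the other 5 libraries, Des at 356.8 CPM against 72.3 to 168.6 CPM, and Acta1 at 33.0 CPM against 1.91 to 12.8 CPM. Myod1, the determination factor, differed little (log2 fold change -0.09, SE 0.27), and Myog was below the filter, with 5.50 CPM in untreated replicate 3 and at most 0.958 CPM elsewhere. In these bulk samples fewer cells of a type and less RNA per cell cannot be told apart. Markers of mature fibres, of which Ckm had 0 counts throughout, summed to 32.2 to 60.7 CPM untreated and 13.5 to 36.1 CPM with PGE2, and their part was not tested.

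Genes of stem cell identity and of the cell cycle showed few differences. Among 25 satellite cell identity and quiescence genes, 0 had an unadjusted p under 0.05 by edgeR and the median log2 fold change was 0.01. Cxcr4, a chemokine receptor, was the 1 of these genes with PGE2 libraries wholly above the untreated ones (log2 fold change 0.60, SE 0.42), against 4.53% of all genes. Pax7 stood at 272.3, 396.4 and 189.8 CPM untreated and at 320.3, 276.6 and 160.6 CPM with PGE2 (log2 fold change -0.17, SE 0.32), and Myf5 differed by 0.06 (SE 0.35). Of 38 genes of G1 and S phase, 0 had an unadjusted p under 0.05 (median -0.04), and of 37 genes of G2 and mitosis 1 was higher at that p, near the 2.52% of all genes, namely Ect2, a regulator of cytokinesis, with a log2 fold change of 0.84 (SE 0.32). Each cell cycle list had 2 genes wholly lower with PGE2, against 4.87% of all genes, namely the replication genes Mcm2 (-0.58, SE 0.28) and Tyms (-0.19, SE 0.25) and the mitotic genes Plk1 (-0.52, SE 0.31) and Bub3 (-0.18, SE 0.23). Mki67, the proliferation marker, stood at 2900, 2462 and 1846 CPM untreated and at 2680, 2909 and 1371 CPM with PGE2 (log2 fold change -0.05, SE 0.28), and cyclin D1 (Ccnd1) at -0.13 (SE 0.22). These standard errors leave room for differences of moderate size in either direction. Immediate early genes were spread widely, with Fos at 1.72 (SE 1.28), Junb at -2.05 (SE 1.11) and Atf3 at -2.25 (SE 1.09). Klf4 was at 152.0 CPM in library b and at 2.91 to 13.4 CPM in the other 5, so that its log2 fold change of 2.64 became -1.09 without that library.

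**Figure D4:**
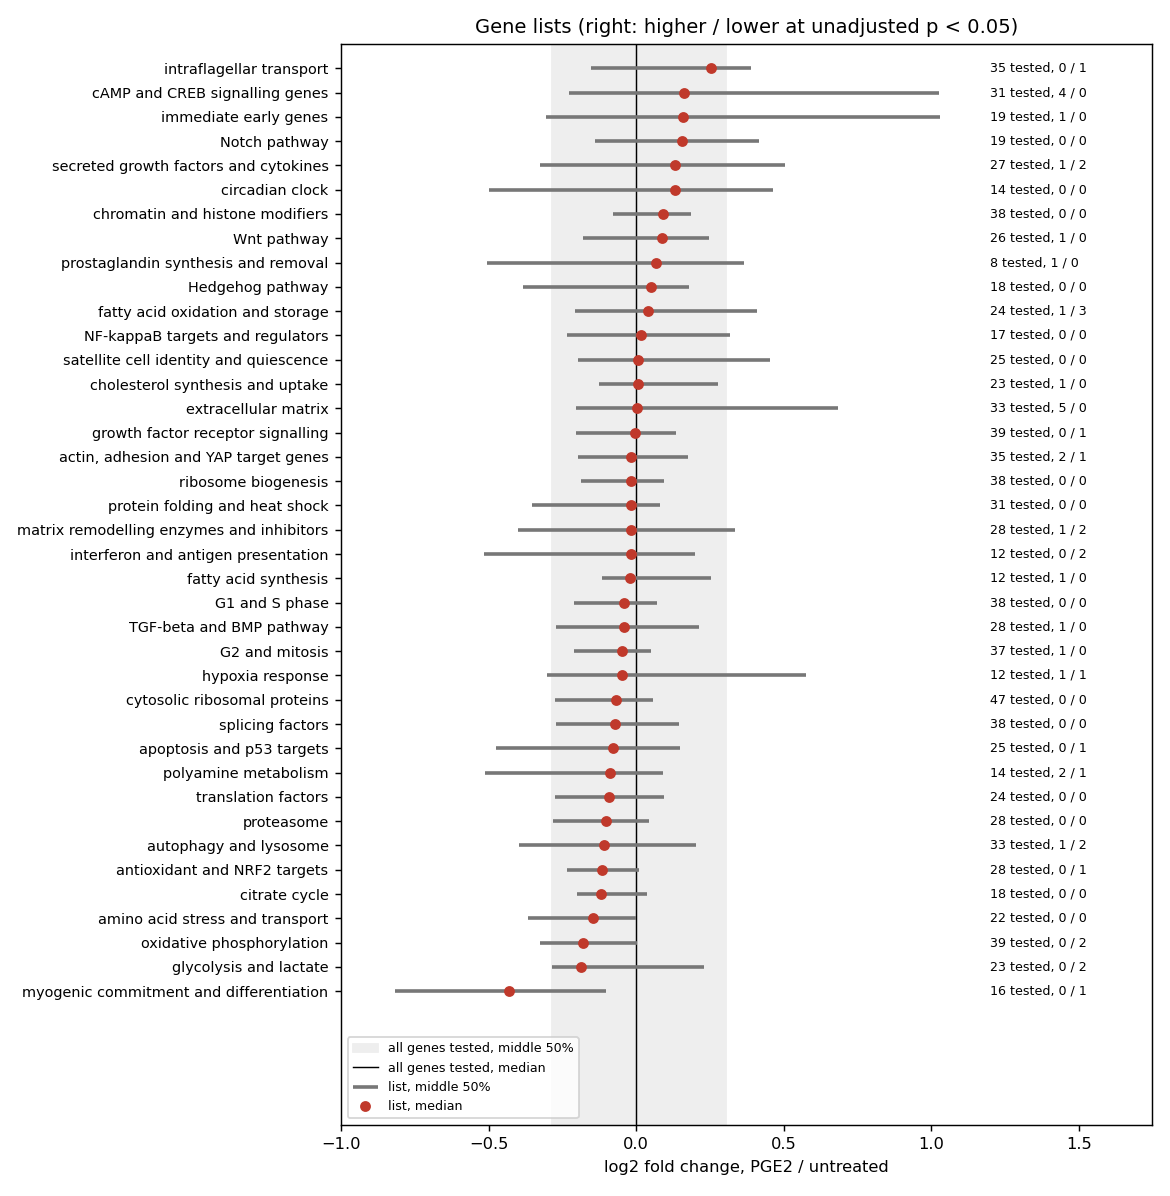
Median (red) and middle 50% (grey bar) of log2 fold changes for the 39 gene lists with at least 8 tested members, beside those of all genes tested (shaded band); the numbers give genes tested and genes higher / lower at an unadjusted p under 0.05. Myogenic commitment and differentiation lies lowest at -0.43, and the immediate early, cAMP and CREB and extracellular matrix lists have long upper arms.

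Among nuclear genes of energy metabolism, those of oxidative phosphorylation and the citrate cycle mostly had log2 fold changes a little below 0. Of 39 oxidative phosphorylation genes tested, 29 had a log2 fold change below 0, against 5379 of all 10717 genes, with a median of -0.18 that stayed below 0 in the alternatives run for the lists (-0.28 to -0.08). Sdhd, a succinate dehydrogenase subunit, was read at 69.0, 127.2 and 164.6 CPM untreated and at 48.5, 48.6 and 59.7 CPM with PGE2 (log2 fold change -1.21, SE 0.34, and -0.68 with the olfactory receptor covariate). Sdhd was 1 of 2 members at an unadjusted p under 0.05, beside Cox7a2 (-0.89, SE 0.41, and -0.46 without untreated replicate 2), both lower, against 1.62% of all genes. Of 18 citrate cycle genes 13 were below 0 (median -0.12). Glycolysis had a median of -0.19, with 13 of 23 genes below 0. Pgam1 was at -0.68 (SE 0.25), and Pdk4, the kinase that shuts pyruvate out of the citrate cycle, at -0.62 (SE 0.27). Fatty acid oxidation and storage had 14 of 24 genes above 0 and a median of 0.04. At an unadjusted p under 0.05, 3 of its genes were lower, against 1.62% of all genes, and 1 was higher, against 2.52%. Of the lower ones, Hadhb and Lpl were at -0.78 and -0.79 without overlap between groups (-0.48 and -0.44 with the olfactory receptor covariate). Pnpla2 was at -1.56 with overlap (-0.49 with that covariate). Acsl4, the higher one, was at 0.99 with overlap.

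The genes encoded by the mitochondrial genome mostly had log2 fold changes above 0, but unevenly between libraries. Of 13 protein genes tested, 12 had a log2 fold change above 0 and 9 were higher at an unadjusted p under 0.05, against 2.52% of all genes, with a median of 0.91. For 2 of them the PGE2 libraries lay wholly above the untreated ones, against 4.53%. mt-Nd2, a subunit of complex I, was read at 285.3, 326.7 and 253.5 CPM untreated and at 1667, 223.4 and 1169 CPM with PGE2, and mt-Nd5 at 1931, 1755 and 1236 CPM untreated and at 5396, 1294 and 2543 CPM with PGE2. For both genes PGE2 library a fell within or below the untreated range, and the high values were those of PGE2 replicate 2 and library b, the same 2 libraries that held olfactory receptor reads at 1212 and 1220 CPM. These genes were chosen after their values were seen.

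B2m and H2-D1, from the interferon and antigen presentation list, lay lower with PGE2 without being among the 12 lower genes named by p. B2m, the invariant chain of MHC class I, was read at 121.4, 156.7 and 131.3 CPM untreated and at 81.5, 80.7 and 71.0 CPM with PGE2 (log2 fold change -0.80, SE 0.26), and its partner H2-D1, whose reads near-identical class I genes could share, had a log2 fold change of -0.86 (SE 0.32, and -0.43 with the olfactory receptor covariate). These were the 2 of 12 genes tested in that list that were lower at an unadjusted p under 0.05, against 1.62% of all genes, with 0 higher and a list median of -0.02. Of the 12 lower genes, Cspg4, the NG2 proteoglycan that also marks pericytes, was the 1 lower gene among the 17 that DESeq2 called (adjusted p = 0.0401). It had 250, 201 and 243 counts in untreated libraries and 11, 46 and 1 in PGE2 libraries, or 34.6, 59.9 and 35.4 CPM against 10.7, 12.5 and 1.42 CPM (log2 fold change -2.24, SE 0.54). The summed level of the 9 smooth muscle and pericyte markers was 48.9 to 80.7 CPM untreated and 23.6 to 38.7 CPM with PGE2, most of it Cspg4 in untreated cells. Without Cspg4 the other 8 summed to 18.4, 20.9 and 15.1 CPM untreated and to 28.6, 10.98 and 34.6 CPM with PGE2, with overlap, and Pdgfrb, another pericyte marker, had 1 count in all. Tns1, a focal adhesion protein, was read at 122.9, 139.1 and 146.8 CPM untreated and at 79.6, 64.6 and 36.9 CPM with PGE2 (log2 fold change -1.16, SE 0.30).

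The other lower genes have varied known roles. Cavin4, a muscle protein of caveolae, was even in untreated cells at 40.4, 40.8 and 40.0 CPM and stood at 10.7, 9.27 and 24.2 CPM with PGE2 (log2 fold change -1.55, SE 0.44). H19, an imprinted noncoding RNA that hosts a microRNA, had a log2 fold change of -1.46 (SE 0.41), and Rbm24, a splicing regulator of striated muscle, of -0.98 (SE 0.27). Has3, a hyaluronan synthase, stood at -1.82 (SE 0.54), Cst6, a cysteine protease inhibitor, at -2.05 (SE 0.56), Marveld2, a protein of tricellular junctions, at -1.67 (SE 0.49), and Slc48a1, a haem transporter, at -1.20 (SE 0.29). Ovca2 (-1.95) and Lrrc47 (-1.42), with Sdhd above, complete the 12. With the olfactory receptor covariate Lrrc47 went to -0.26, H19 to -0.89 and Rbm24 to -0.64, and Lrrc47 was at -0.83 without untreated replicate 3. H19, Has3, Ovca2, Lrrc47 and Slc48a1 overlap other annotated genes.

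The MuSCs of aged mice gave the same 24 genes a second comparison, whose levels come from other libraries. Its fit held all 4 groups, so that its SE and p-values rest in part on the spread between the young libraries. Among genes tested in all 4 groups, the aged comparison had 428 of 12619 genes higher (3.39%) and 474 lower (3.76%) at an unadjusted p under 0.05, and 1193 (9.45%) wholly higher and 1172 (9.29%) wholly lower. All 12 higher genes were also higher with PGE2 in aged MuSCs, 9 of them at an unadjusted p under 0.05 and 7 without overlap. For Zfp784 the direction in aged cells rests on 1 library (log2 fold change 0.92, SE 1.30). It stood at 3.32 and 0.768 CPM untreated and at 0.617, 12.9 and 0 CPM with PGE2. Of the 12 lower genes 6 were lower in aged MuSCs, 2 of them at an unadjusted p under 0.05 and 3 without overlap. The aged comparison had 2 genes past an adjusted p under 0.05 (0.0158%), Odc1 and Mmp14, and both are among the 12.

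In aged MuSCs Odc1 was read at 1812 and 2331 CPM untreated and at 6633, 6747 and 4558 CPM with PGE2 (log2 fold change 1.53, SE 0.25, edgeR adjusted p = 0.0371). Mmp14 stood at 4.98 and 2.30 CPM untreated and at 92.9, 44.8 and 42.7 CPM with PGE2 (log2 fold change 3.93, SE 0.67, edgeR adjusted p = 0.0371). Of the 12 higher genes, 6 (Odc1, Vegfa, Mmp14, Nr4a2, Pde4b and Dpysl3) were known from an earlier comparison over both ages, so that their aged values are not independent support. The remaining 6 were above 0 in aged cells, 3 of them at an unadjusted p under 0.05, namely Sik1 (log2 fold change 1.28, SE 0.40), Tubb2a (1.48, SE 0.53) and Il18rap (1.13, SE 0.44). Of these 6 only Sik1 had aged groups that did not overlap. Spp1, at 2269 and 587.2 CPM untreated and 2800, 2559 and 1347 CPM with PGE2 in aged cells, overlapped between groups (log2 fold change 0.64, SE 0.39).

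Among all 270 genes higher in young MuSCs at an unadjusted p under 0.05, 142 (52.6%) were also higher in aged cells, against 50.6% of all genes tested in both, and of the 174 lower genes 100 (57.5%) were also lower, against 49.3%. At an unadjusted p under 0.05 in aged cells and in the same direction stood 33 of the 270 (12.2%), against 3.48% of all genes, and 19 of the 174 (10.9%), against 3.29%. In the opposite direction at that p stood 16 of the 270, against 352 of all 10713 genes (3.29%), and 7 of the 174, against 373 of 10713 (3.48%). The age by PGE2 interaction had 0 genes with an adjusted p under 0.05 by edgeR and 0 by DESeq2, and 747 (5.92%) at an unadjusted p under 0.05 by edgeR. Mmp14 was the 1 higher gene among these 747 (edgeR interaction adjusted p = 0.827), beside 6 of the 12 lower genes. Both sets of 12 were chosen on young values that also enter the interaction, so that these counts partly follow from that choice. Has3 was the most divergent of the lower genes, at -1.82 in young and 1.42 in aged cells (edgeR interaction adjusted p = 0.787).

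**Figure D5:**
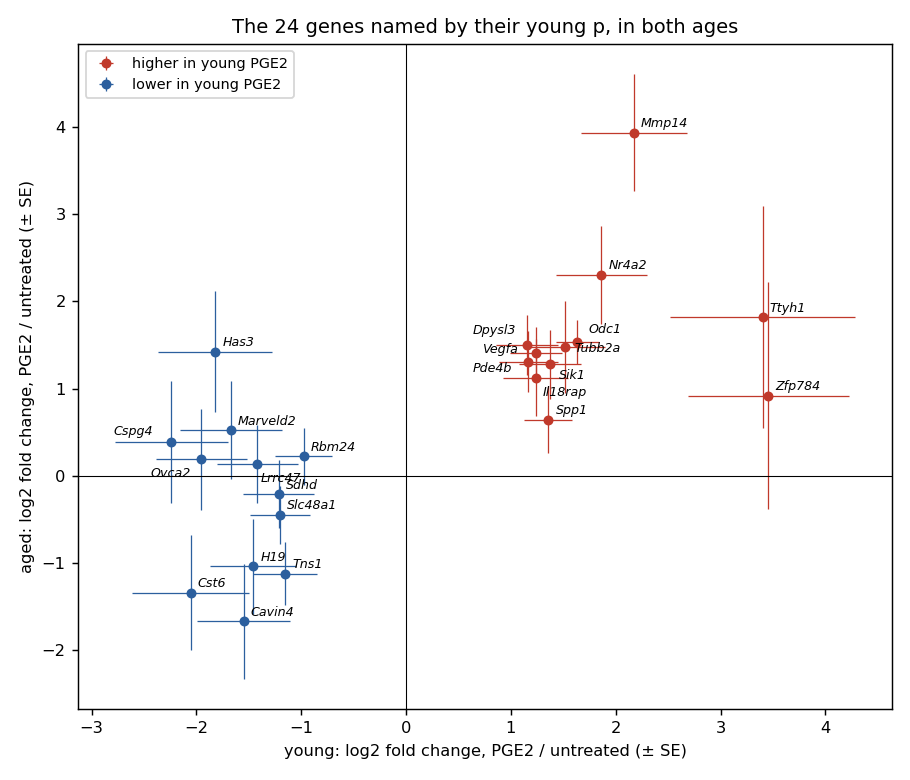
Log2 fold change with PGE2 in young (x axis) and aged (y axis) MuSCs, each ± SE, for the 24 genes named by their young p. All 12 higher genes (red) lie above 0 on the aged axis, while 6 of the 12 lower genes (blue) lie above and 6 below it.

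Components of the primary cilium and of Hedgehog (Hh) signaling, which the study centred on, were spread around 0 in young MuSCs. Of 18 Hh pathway genes 0 had an unadjusted p under 0.05 by edgeR (median log2 fold change 0.05). Gli2 was read at 6.22, 15.5 and 11.9 CPM untreated and at 6.80, 10.4 and 11.4 CPM with PGE2 (log2 fold change -0.23, SE 0.62), and Ptch1 was at 0.02 (SE 0.53). Of 35 intraflagellar transport genes 1 was lower at an unadjusted p under 0.05, which is near the 1.62% of all genes. It was the kinesin subunit Kif3a, at 36.5, 34.8 and 46.7 CPM untreated and 17.5, 25.4 and 21.3 CPM with PGE2 (log2 fold change -0.86, SE 0.37, and -0.51 with the olfactory receptor covariate). The groups of Kif3a did not overlap, whereas the median of the list was 0.25 and went to between -0.02 (without library a) and 0.30 over the alternatives.

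Of the remaining lists, none had more than 3 members at an unadjusted p under 0.05 in either direction, and their medians lay between -0.15 and 0.16. These covered protein synthesis and folding, the proteasome, amino acid stress, antioxidant genes, Notch, Wnt and TGF-beta signaling, growth factors, autophagy, the clock, chromatin and splicing. Among the secreted factors Csf1, the macrophage growth factor, was at 1891, 2241 and 2733 CPM untreated and 1685, 1712 and 1482 CPM with PGE2 (log2 fold change -0.49, SE 0.22, and -0.18 with the olfactory receptor covariate). Nrp2, a semaphorin and VEGF coreceptor, was at 151.0, 200.1 and 148.6 CPM untreated and 95.1, 99.3 and 90.9 CPM with PGE2 (log2 fold change -0.80, SE 0.25). Both genes were lower in every PGE2 library than in any untreated one.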

How the data were processed

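The authors amplified cDNA from sorted cells (NuGEN Ovation), aligned reads to mm10 with STAR and called genes with RSEM or Salmon, and which of these made the deposited estimated counts is not stated. Read filters, annotation release and strand setting are not given in the sources used here. Of the deposited values 4.64% were not whole, and all were rounded. The PGE2 columns a and b share 1 name, matched to the young PGE2 group but to no replicate number.

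Of 32976 gene identifiers 31980 had a symbol in GENCODE M21. Genes were filtered (filterByExpr, minimum count 10, minimum total 15), scaled by TMM and tested with the quasi-likelihood test of edgeR 4.0.16 with Benjamini-Hochberg adjustment and a threshold of 0.05. The 6 young libraries entered the main comparison, and all 4 groups the interaction and the aged comparison. The SE is the size of the log2 fold change divided by the square root of F. Named genes were those past the threshold, the 12 smallest p in each direction with separate groups and a gene name, up to 6 per list at an unadjusted p under 0.05, prostaglandin, myogenic, cell cycle and Hh genes, and 8 genes known from a comparison over both ages. Members, lists (40 functional, 9 marker) and rules were chosen with earlier results of these data known.

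Alternatives were other scalings, filters and thresholds, DESeq2 1.42.0, thinning to equal totals, each library left out, all 11 libraries in 1 fit, an olfactory receptor covariate and, added after seeing the data, a mitochondrial one. On simulated counts for this comparison (10356 genes), edgeR called 57 of 65 genes changed 8-fold, 44 of 70 changed 4-fold, 8 of 52 changed 2-fold and 8 of 10169 unchanged. DESeq2 called 57, 45, 10 and 18 of these, so that it made 18 false calls.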

Additional observations from a re-analysis of the deposited data

How the results depend on the processing

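The count of 1 gene (Odc1) for young PGE2 against young stayed at 1 under both other scalings (RLE, upper quartile), the stricter filter, an adjusted p under 0.1, thinning to equal totals, all 11 libraries in 1 fit, and the mitochondrial covariate chosen after seeing the data. It was 444 at an unadjusted p under 0.05, 17 by DESeq2, 100 when genes of low count were kept (41 of these lay under the minimum), and 0 with the olfactory receptor covariate by edgeR (82 at an unadjusted p under 0.05). With each library left out it ranged from 0 to 4: it was 0 without each untreated library and without PGE2 replicate 2, 2 without library a (Odc1 and mt-Nd2) and 4 without library b (Odc1, Spp1, Fn1 and Gm10222). The interaction count of 0 by edgeR and DESeq2 was 747 at an unadjusted p under 0.05, 40 without the filter and 0 to 2 with each library left out, the 2 arising without aged replicate 1. The cause of these differences was not tested.

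Of the 24 genes named by p, 0 changed direction in an alternative, and of all 70 named genes 10 did. Of 952 values of 70 named genes, 917 kept their side of the threshold, 30 gained the call, 5 lost it (all Odc1) and 0 reversed with a call on either side. The smallest PGE2 library held 693371 counts, and in simulation edgeR called 8 of 52 genes changed 2-fold. The part of depth in this was not tested. No paired analysis was possible from the column names alone, because 2 of the 3 young PGE2 columns carry the same replicate number, so that the young groups share 1 usable number. These 2 columns are replicates 1 and 3 in an unknown order, and a paired fit under each order was not run.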
